A study of Homo sapiens with 6 samples.

Results

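The genes described here are the translation initiation and elongation factors of human embryonic stem cells (hESCs), with the factors that release the finished protein, the cytoplasmic poly(A)-binding proteins, the eIF2α kinases, the eIF4E inhibitors and the methyltransferases of eEF1A. They were chosen by symbol from the deposited table of read counts, from the EIF1 to EIF6 families, the EEF1 family, EEF2, ETF1, GSPT1, PABPC1 and PABPC4. The pattern matched 208 of the 61155 gene rows, and 71 genes were left after 136 pseudogene rows and EIF4B, a direct S6K substrate, were set aside. Of these 71 genes, 68 had enough reads for a test. The other 3 are EEF1G, EIF4E1B, with 3 to 11 counts per library, and 1 Y-linked gene that is not reported.

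The study deleted S6K1, a kinase of the mTOR pathway encoded by RPS6KB1, in H7 cells, an established hESC line, to follow human brain development without it. Bulk RNA sequencing compared 3 libraries of wild-type (WT) H7 cells with 3 libraries of S6K1-/- H7 cells (KO). Per the methods, the cells were undifferentiated and grew without feeder cells on Matrigel in TeSR-E8 medium. The labels call the KO genotype a knockdown and give both groups a time of week 5. All KO libraries came from 1 CRISPR/Cas9 clone, so the genotype and the clone cannot be told apart, and nothing states that the libraries of a group came from separate cultures, so that p-values measure only the spread between these libraries.

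Library totals ranged from 21896698 to 24473013 counts, and libraries of 1 group differed by more than counting error. RPS6KB1 was counted at 831, 791 and 777 in WT and at 464, 464 and 438 in KO, a log2 fold change of -0.75 (SE 0.057, n = 3 per group, adjusted p = 2.52e-07, from the quasi-likelihood test of edgeR and adjusted after Benjamini and Hochberg over all genes tested). All 14 markers of embryonic stem cells, POU5F1, NANOG and SOX2 among them, were above 1 CPM on average, CPM being a gene's reads scaled to the same library size everywhere. Their summed level lay between 7940 and 8120 CPM in WT and between 7450 and 7550 CPM in KO, and at an adjusted p under 0.001 in edgeR's test DNMT3B was lower (log2 fold change -0.35) and PRDM14 higher (0.29). Of 23 markers of other cell types, 8 were above 1 CPM, and HAND1 was at 0 in every library. Their sum lay between 137 and 139 CPM in WT and between 76.4 and 79.7 CPM in KO, with COL1A1, a fibrillar collagen, at 80.2 CPM in WT and 23.2 CPM in KO. At the same threshold, COL1A1 and DCX were lower and PAX6, a neuroectoderm gene, was higher (4.47 CPM in WT and 7.58 CPM in KO, edgeR adjusted p = 0.000269). Whether these differences have a part in the values below was not tested, and in bulk samples fewer cells of a type and less RNA per cell cannot be told apart.

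Translation starts when eIF2, carrying the initiator tRNA and GTP, joins eIF1, eIF1A, eIF3 and eIF5 on the small ribosomal subunit. The complex is brought to the capped mRNA by eIF4E, eIF4G and eIF4A and scans to the start codon, after which eEF1A delivers each aminoacyl-tRNA and eEF2 moves the ribosome along. The mTOR pathway acts here mainly on proteins and on ribosome loading. mTOR phosphorylates the eIF4E inhibitors, S6K1 phosphorylates eIF4B, eEF2 kinase and PDCD4, and mRNAs that begin with a run of pyrimidines (TOP mRNAs), among them those of elongation factors, are translated according to mTOR activity. RNA counts measure none of these steps, only the amount of each mRNA.

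The sequence around the annotated start of a transcript shows which factor genes carry a run of pyrimidines near it. For 54 of the 70 reported genes a RefSeq start was at hand (GRCh38.p14), and the window of 10 bases before it and 20 bases from it was read on the gene's own strand. The sequences show the 4 genes of a classical TOP list with a long run, the pair of eIF2γ genes that stood higher in KO, EIF3D as a gene outside the TOP list with a run, and 3 genes with short runs only. The longest unbroken run of C and T is in capitals. A gene with several RefSeq starts was counted, as were all genes in the table, by the start with the longest run, and that start is the one shown.
EEF1B2: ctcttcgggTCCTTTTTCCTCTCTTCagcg
EIF3F: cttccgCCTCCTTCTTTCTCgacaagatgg
EEF1A1: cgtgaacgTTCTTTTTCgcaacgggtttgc
EEF2: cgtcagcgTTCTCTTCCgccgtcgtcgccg
EIF2S3: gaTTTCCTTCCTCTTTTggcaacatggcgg
EIF2S3B: gaCTTTCTTCCTCTTTTggcaacatggcgg
EIF3D: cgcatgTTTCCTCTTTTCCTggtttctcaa
EEF1G: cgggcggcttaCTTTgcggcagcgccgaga
EIF2S1: gaggTTCCgcatgcgcggtggagtgagcga
EEF1AKMT4: gccggcggCTCTggctgcccggcggttgag

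The windows lie at chr2:206159885-206159914 on the plus strand for EEF1B2, chr11:7987327-7987356 plus for EIF3F, chr6:73521013-73521042 minus for EEF1A1 and chr19:3985444-3985473 minus for EEF2. Those of the eIF2γ genes lie at chrX:24054946-24054975 plus for EIF2S3 and chr12:10505880-10505909 plus for EIF2S3B. The remaining windows lie at chr22:36529147-36529176 minus for EIF3D, chr11:62573872-62573901 minus for EEF1G, chr14:67360318-67360347 plus for EIF2S1 and chr3:184249662-184249691 plus for EEF1AKMT4. The run was 17 bases long in EEF1B2, which has another start with a run of 4, 15 in EIF2S3 and in EIF2S3B, 14 in EIF3D and in EIF3F, and 9 in EEF1A1 and in EEF2. A run of at least 8 pyrimidines was found in 13 of the 54 factor genes (24.1%), against 4215 of 27305 genes in the table (15.4%). It was found in 4 of 5 genes of the TOP list that had an entry, and in 9 of the other 49 (18.4%). The run may lie anywhere in the window, so it need not begin the mRNA. That of EIF4G3, 8 bases long, begins at position -10 and lies before the start, and that of EIF4H begins at position 5. A run in such a window is a feature of the letters and was not tested as a site. The 13 genes with a run had log2 fold changes from -0.09 to 0.29 with a median of 0.00, and the 39 tested genes without one from -0.44 to 0.24 with a median of 0.02.

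The mRNA levels of translation factors differed little between WT and S6K1-/- hESCs. None of the 68 tested genes passed the study's threshold, an adjusted p under 0.001, in edgeR's quasi-likelihood test, against 3.96% of the 19521 genes tested, 2.54% lower in KO and 1.42% higher. DESeq2's Wald test placed 1 factor gene, EIF2S3, past it. At an unadjusted p under 0.05 there were 5 lower and 6 higher factor genes, where 14.5% of all genes were lower and 11.8% higher. At an adjusted p under 0.05, EEF1AKMT4, EEF1A2 and EIF3CL were lower, beside 8.31% of all genes. EIF2S3, EIF2S3B, EIF3C and EIF3L were higher, beside 5.47% of all genes, a share close to that of the factors. With a mean of 1000 counts or more, 0 of 48 factor genes were lower and 3 higher at that threshold, against 249 and 469 of 5063 genes.

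The log2 fold changes ranged from -0.46 to 0.29, with 32 genes below 0 and 36 above 0 and a median of 0.01 where the median of all genes was 0. A change within 0.2 on the log2 scale was found for 58 of the 68 factor genes (85.3%) and for 68.9% of all genes. Factor genes are abundant, and where the mean was 1000 counts or more the shares were 95.8% of 48 factor genes and 92.5% of 5063 genes. For 56 factor genes the 95% interval of the change lay inside a 1.25-fold change in either direction, which is 0.32 on the log2 scale. The other 12 were EIF4A1, EIF2S3B, EIF3C, EIF3CL, EIF4EBP3, EIF5A2, EEF1A2, EEF1D, EEF1AKMT1, EEF1AKMT2, EEF1AKMT3 and EEF1AKMT4. The values of WT and KO libraries did not overlap for 9 factor genes that were lower and 8 that were higher in KO, against 16.7% and 14% of all genes, or 30.7% in both directions.

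**Figure D1:**
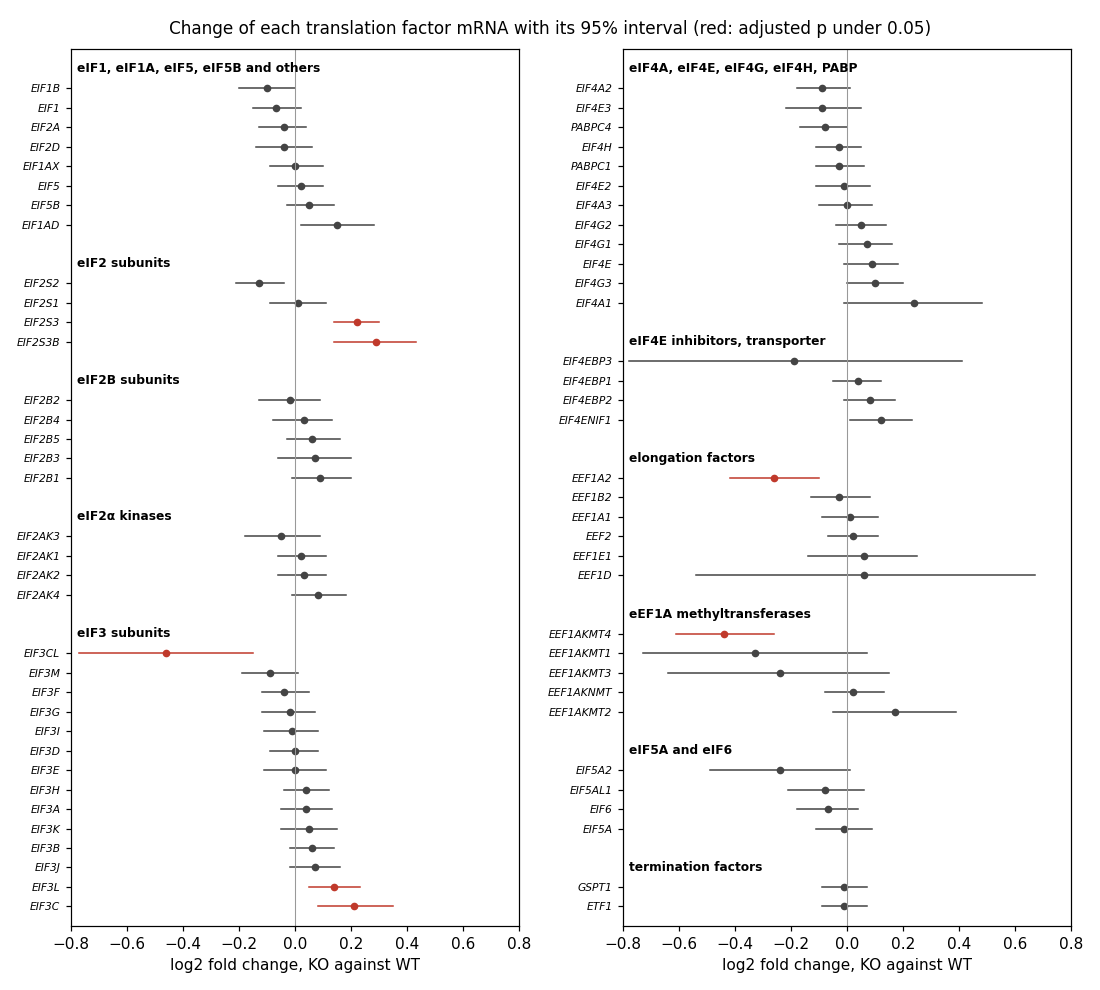
Log2 fold change of each tested translation factor gene in KO against WT, with its 95% interval as a line, grouped by role. Most points lie close to 0, the lowest is EIF3CL at -0.46, the highest is EIF2S3B at 0.29, and the longest intervals belong to genes with few or uneven counts such as EEF1D and EIF4EBP3.

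The eIF2 subunits included EIF2S3, the gene with the smallest adjusted p of all 68 factors in edgeR's test, and they lay on both sides of 0. EIF2S3 on the X chromosome encodes eIF2γ, the subunit that binds GTP and the initiator tRNA. It stood at 622, 633 and 639 CPM in WT and at 738, 725 and 741 CPM in KO, from 14845 to 15565 counts in WT and 16135 to 17359 in KO. Every KO library was above every WT library. The mean of 631 ± 8.68 CPM (SD, n = 3) in WT and 735 ± 8.53 CPM in KO gave a log2 fold change of 0.22 (SE 0.039, 95% interval 0.14 to 0.30, edgeR adjusted p = 0.00116). EIF2S3 was past the study's threshold with DESeq2's size factors (adjusted p = 0.000874), with DESeq2's Wald test (adjusted p = 3.52e-09) and without a filter on low counts (adjusted p = 1.39e-05). Leaving out single libraries kept its adjusted p between 0.00166 and 0.00921.

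EIF2S3B, a second eIF2γ gene on chromosome 12, was counted at 481, 473 and 410 in WT and at 529, 588 and 478 in KO. In CPM its libraries lay from 17.7 to 19.8 in WT and from 22.0 to 24.6 in KO, again without overlap, with a log2 fold change of 0.29 (SE 0.069, edgeR adjusted p = 0.0111). Without WT replicate 3 the adjusted p was 0.0502, and without KO replicate 2 it was 0.0581. Of the 150-base windows of EIF2S3B transcripts, 2.3% were found unchanged in EIF2S3. The MANE Select transcript of EIF2S3B has 1 exon and that of EIF2S3 has 12. Exact windows do not show where reads with mismatches were placed. Whether reads of 1 of these genes were counted for the other was not tested. The pair counted together, an analysis added after seeing the data, had a log2 fold change of 0.22 (SE 0.038, edgeR adjusted p = 0.00105).

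EIF2S2, which encodes eIF2β, the subunit that contacts eIF5 and eIF2B, lay on the other side of 0. Its libraries held 286, 288 and 274 CPM in WT and 255, 251 and 271 CPM in KO. The groups did not overlap, and its log2 fold change of -0.13 (95% interval -0.21 to -0.04) had an edgeR adjusted p of 0.0626. It was under 0.05 with library totals (0.032), without a filter on low counts (0.0445) and without KO replicate 3 (0.0416). EIF2S1 encodes eIF2α, whose phosphorylation slows initiation. It stood at 98.7 ± 5.76 CPM in WT and 99.5 ± 1.84 CPM in KO, a log2 fold change of 0.01 with a 95% interval from -0.09 to 0.11.

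**Figure D2:**
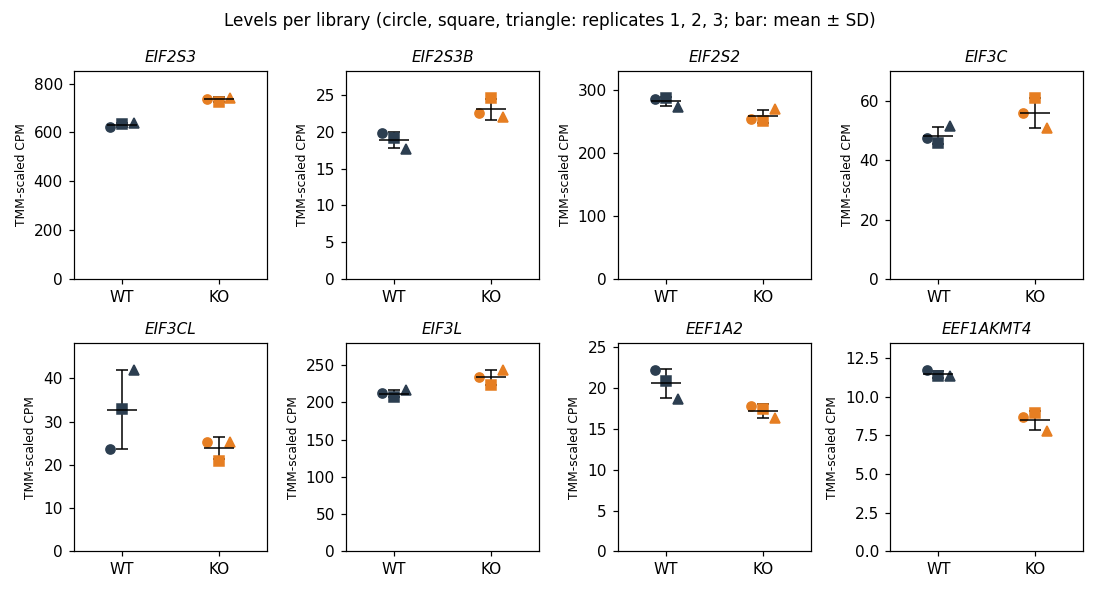
CPM of 8 translation factor genes in each library, with WT and KO side by side, each point 1 library, with the mean and SD of 3 libraries as a dash and a line. EIF2S3, EIF2S3B and EIF3L are higher and EIF2S2, EEF1A2 and EEF1AKMT4 lower in every KO library, whereas the libraries of EIF3C and of EIF3CL overlap between the groups.

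Of the 9 genes for eIF2B and for the eIF2α kinases, none passed an adjusted p of 0.05 in edgeR's test, and none had an unadjusted p under 0.05. Among all genes 13.8% passed the first, and 14.5% were lower and 11.8% higher at the second, so a count of 0 in so few genes, here and in the other roles, sets none of them apart. The 5 subunits of eIF2B, which reloads eIF2 with GTP, had log2 fold changes from -0.02 (EIF2B2) to 0.09 (EIF2B1), with a median of 0.06. EIF2B1, the highest of them per length at 25.0 CPM per kilobase, was counted at 1390, 1493 and 1301 in WT and 1478, 1402 and 1395 in KO, and its groups overlapped in CPM. The 4 kinases of eIF2α had changes from -0.05 to 0.08. EIF2AK4 (GCN2), which responds to uncharged tRNA, was counted at 6043, 5592 and 5807 in WT and 6046, 5975 and 5692 in KO, a log2 fold change of 0.08 with a 95% interval from -0.01 to 0.18. EIF2AK3 (PERK), the kinase of the endoplasmic reticulum stress response, was at -0.05, EIF2AK2 (PKR), which binds double-stranded RNA, at 0.03, and EIF2AK1 (HRI), which responds to heme shortage, at 0.02.

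eIF3 is the large complex that holds the initiation factors on the small ribosomal subunit. Its 14 genes had a median log2 fold change of 0.02, and 11 of them lay between -0.09 and 0.07. EIF3L was counted at 5170, 5100 and 5020 in WT and at 5498, 5336 and 5296 in KO. It stood at 212 ± 4.34 CPM in WT and 233 ± 10.2 CPM in KO, without overlap, and its log2 fold change was 0.14 (SE 0.042, edgeR adjusted p = 0.0394). Leaving out any 1 library except KO replicate 2 raised the adjusted p to between 0.0592 and 0.119, and with library totals it was 0.0796. In GENCODE 44, 1767 of the 4296 exonic bases of EIF3L overlap another gene of the same strand.

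EIF3C and EIF3CL, copies that share much of their sequence, on chromosome 16 (chr16:28688558-28735727, plus strand, and chr16:28379579-28403841, minus strand), were at opposite ends of the complex. EIF3C was counted at 1152, 1129 and 1195 in WT and at 1307, 1458 and 1106 in KO, a log2 fold change of 0.21 (SE 0.063, edgeR adjusted p = 0.0369). EIF3CL was counted at 574, 808 and 973 in WT and at 597, 502 and 548 in KO, a log2 fold change of -0.46 (SE 0.15, edgeR adjusted p = 0.0493). The groups overlapped for both genes. Of the 2957 windows of 150 bases in EIF3CL transcripts 93.2% also occur in EIF3C. Reads over most of EIF3CL therefore cannot be assigned to 1 of the copies by sequence. All EIF3C transcripts pooled hold 7057 windows, of which 39.1% occur in EIF3CL. The MANE Select transcripts are 2910 bases long for EIF3C and 2913 for EIF3CL. The share for that EIF3C transcript alone was not computed. Counted together, a step added after seeing the data, they held 1726, 1937 and 2168 counts in WT and 1904, 1960 and 1654 in KO, with a log2 fold change of -0.02 (SE 0.074, edgeR adjusted p = 0.885). For EIF3CL the adjusted p was 0.37 in DESeq2's Wald test and 1.91e-10 in edgeR's test without a filter on low counts. Its value also rested on single libraries, at -0.64 (adjusted p = 0.000533) without WT replicate 1 and -0.24 (adjusted p = 0.242) without WT replicate 3, and its adjusted p was between 0.0742 and 0.187 without WT replicate 2 or any KO library. That of EIF3C was between 0.0897 and 0.167 without WT replicate 1 or 2 or KO replicate 1 or 2, and 0.0582 with library totals.

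The remaining eIF3 genes encode both the core and the outer subunits. EIF3A and EIF3B, the scaffold of the complex, had log2 fold changes of 0.04 and 0.06. EIF3E, the highest of the complex at 243 CPM per kilobase, was counted at 11851, 12081 and 11505 in WT and 11335, 10976 and 11628 in KO, a change of 0.00 (95% interval -0.11 to 0.11). EIF3D, which can bind the cap of some mRNAs and carries a run of 14 pyrimidines, was also at 0.00, and EIF3F and EIF3H were at -0.04 and 0.04. EIF3G, EIF3I and EIF3K were at -0.02, -0.01 and 0.05. EIF3M at -0.09 and EIF3J at 0.07 were the outermost of these genes, with edgeR adjusted p of 0.269 and 0.323.

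Of the genes for cap binding and the eIF4F complex, 12 were tested and none passed 0.05 in edgeR's test, with no gene at an unadjusted p under 0.05, beside 13.8% of all genes at the former and 14.5% lower and 11.8% higher at the latter. Their log2 fold changes ran from -0.09 to 0.24 around a median of -0.01. The upper end is EIF4A1, with few counts (95% interval -0.01 to 0.48) and a change of 0.11 with pseudogene rows added, and the next is EIF4G3 at 0.10. EIF4E, the cap-binding protein, was counted at 2291, 2377 and 2214 in WT and 2411, 2301 and 2281 in KO, a log2 fold change of 0.09 (95% interval -0.01 to 0.18). EIF4G1, its scaffold partner, was at 674 ± 11.0 CPM in WT and 706 ± 32.3 CPM in KO, and EIF4G3, its paralog, had a change of 0.10. EIF4G2 (DAP5), a relative that does not bind eIF4E, was at 0.05, and the helicase gene EIF4A2 at -0.09 (95% interval -0.18 to 0.01). EIF4A3, the helicase of the exon junction complex, was at 0.00 and EIF4H, which stimulates eIF4A, at -0.03. PABPC1, which joins the poly(A) tail to eIF4G, was counted at 44737, 45746 and 42568 in WT and 42614, 43874 and 38865 in KO. It stood at 1840 ± 15.1 CPM in WT and 1810 ± 23.8 CPM in KO, just without overlap, with a log2 fold change of -0.03 (95% interval -0.11 to 0.06). PABPC4, its paralog, was at -0.08, and EIF4E2 and EIF4E3, relatives of EIF4E, were at -0.01 and -0.09. EIF4B, set aside from the list, which assists eIF4A, was counted at 23470, 23747 and 22484 in WT and 23988, 23709 and 22619 in KO (log2 fold change 0.07, edgeR adjusted p = 0.261).

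The eIF4E inhibitors are direct mTOR targets as proteins, and none of their genes passed 0.05. EIF4EBP1 was counted at 2986, 3162 and 2844 in WT and at 2961, 3040 and 2853 in KO, a log2 fold change of 0.04 with a 95% interval from -0.05 to 0.12. EIF4EBP2 was at 408 ± 15.6 CPM in WT and 432 ± 13.0 CPM in KO, with a change of 0.08 (95% interval -0.01 to 0.17). EIF4EBP3 held 10 to 18 counts per library, too few to resolve anything short of a large change (95% interval -0.78 to 0.41). Per length, EIF4EBP1 was the highest of the 3 at 153 CPM per kilobase, followed by EIF4EBP2 at 56.1 and EIF4EBP3 at 0.956. EIF4ENIF1, which carries eIF4E into the nucleus, was higher in every KO library, at 37.3 to 37.7 CPM against 33.6 to 35.7 CPM in WT. Its log2 fold change was 0.12, with an edgeR adjusted p of 0.138.

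The 8 tested genes of start codon scanning lay between -0.10 and 0.15, and none passed 0.05. EIF1, which guards start codon choice, was counted at 6648, 7078 and 6561 in WT and 6282, 6462 and 5833 in KO. It was lower in every KO library in CPM, at 268 to 270 against 273 to 288, with a log2 fold change of -0.07 (95% interval -0.15 to 0.02), and its paralog EIF1B, also without overlap, was at -0.10 (edgeR adjusted p = 0.176). EIF1AD, which holds an eIF1A-like domain, was the highest of the group at 0.15 (edgeR adjusted p = 0.132). EIF1AX, EIF5 and EIF5B, which stabilise the scanning complex, trigger GTP hydrolysis and join the subunits, were at 0.00, 0.02 and 0.05. EIF2A and EIF2D, which can bring initiator tRNA without eIF2, were both at -0.04.

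The main elongation factors were the most abundant of all translation factor mRNAs and differed little between the genotypes. EEF1A1 was counted at 257930, 259217 and 244588 in WT and 247109, 248872 and 240595 in KO. Its log2 fold change was 0.01 (95% interval -0.09 to 0.11). EEF2, the translocase that S6K1 regulates through eEF2 kinase, was counted at 76070, 75882 and 73695 in WT and 76120, 75607 and 67895 in KO, a log2 fold change of 0.02 (95% interval -0.07 to 0.11). EEF1B2, which reloads eEF1A with GTP, was at -0.03 and EEF1E1, part of the aminoacyl-tRNA synthetase complex, at 0.06.

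EEF1A2, the eEF1A form of muscle and neurons, was low in these cells and lower in KO. It was counted at 541, 514 and 434 in WT and at 419, 420 and 355 in KO. Its level of 20.6 ± 1.79 CPM in WT and 17.2 ± 0.814 CPM in KO gave a log2 fold change of -0.26 (SE 0.074, 95% interval -0.42 to -0.10, edgeR adjusted p = 0.0305). The groups did not overlap. The adjusted p was 0.0149 without WT replicate 3, between 0.0541 and 0.144 without any other library, and 0.118 in DESeq2's Wald test.

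The methyltransferases of eEF1A were the role with the lowest median, -0.24, over 5 genes, and the smallest counts. EEF1AKMT4, which modifies a lysine of eEF1A, was counted at 286, 279 and 263 in WT and at 204, 214 and 169 in KO. Its libraries lay from 11.3 to 11.7 CPM in WT and from 7.76 to 8.94 CPM in KO, and each KO library was below each WT library. The log2 fold change was -0.44 (SE 0.083, 95% interval -0.61 to -0.26, edgeR adjusted p = 0.00207), and the mean level decreased by 26.1%. Over 13 other ways of fitting the data its adjusted p ranged from 0.000134 to 0.0158. In the annotation 480 of its 975 exonic bases also belong to a readthrough gene with ECE2 on the same strand. EEF1AKMT1 at -0.33, EEF1AKMT3 at -0.24 and EEF1AKMT2 at 0.17 had fewer than 200 counts in every library and intervals that include 0, and EEF1AKNMT was at 0.02.

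eIF5A helps the ribosome through stretches that stall it, and eIF6 keeps the ribosomal subunits apart. EIF5A was counted at 18507, 20620 and 18116 in WT and at 18162, 19564 and 16828 in KO, a log2 fold change of -0.01 (95% interval -0.11 to 0.09). Its copy EIF5AL1 was at -0.08, EIF6 at -0.07, and EIF5A2, with 94 to 143 counts per library, at -0.24 (95% interval -0.49 to 0.01). The release factors ETF1 (eRF1), which reads stop codons, and GSPT1 (eRF3a), its GTPase, were both at -0.01. ETF1 was counted at 5004, 5035 and 4819 in WT and 4766, 4781 and 4604 in KO, with overlapping CPM and a 95% interval from -0.09 to 0.07.

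Levels between genes were compared as CPM per kilobase of the MANE Select transcript, averaged over the 6 libraries. EEF1A1 led at 3020, followed by EEF2 at 998, PABPC1 at 639, EIF5A at 625, EEF1B2 at 321, EIF4A2 at 299, EIF4G2 at 258 and EIF3E at 243. The close values of PABPC1 and EIF5A leave their order uncertain. By this measure subunits of 1 complex were not equal. The measure rests on annotated lengths and on reads not split over junctions, and whether it follows the mRNA level was not tested. In eIF2 the subunits ran from 23.8 for EIF2S1 through 106 for EIF2S2 to 198 for EIF2S3, with the second eIF2γ gene EIF2S3B at 7.95. In eIF3, leaving out the copies EIF3C and EIF3CL, they ran from 30.3 for EIF3F to 243 for EIF3E. The order depends on length. EIF3F, with 6920 bases, stood at 212 CPM in WT, above EIF3K, with 772 bases, at 148 CPM. EIF4E, at 40.5, was below its inhibitor EIF4EBP1 at 153 and its partner EIF4G1 at 128.

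**Figure D3:**
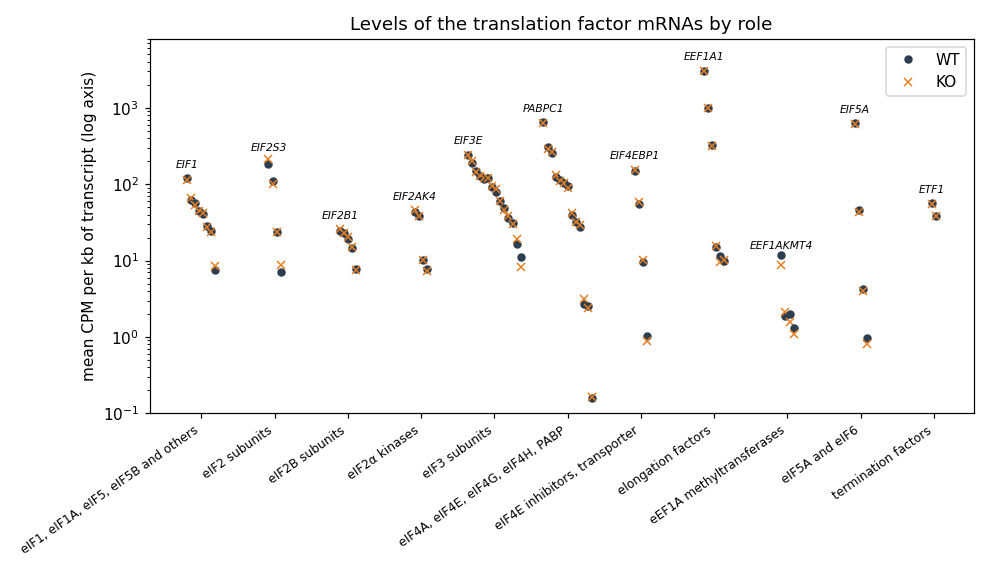
Level of each translation factor gene as CPM per kilobase on a log axis, grouped by role, in WT and in KO. EEF1A1 (3020) and EEF2 (998) stand highest, and the methyltransferases and EIF4EBP3 (0.956) are among the lowest.

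All factor genes together took from 2.72% to 2.8% of a library's counts, and EEF1A1 alone took from 37.9% to 39.2% of those. Their summed level was 27480 ± 85.2 CPM in WT and 27780 ± 408 CPM in KO, 1.1% higher, which an exact two-sided permutation test did not separate (p = 0.4). The difference was -0.335% with library totals and 1.9% without KO replicate 2. Without EEF1A1 it was 16920 ± 111 CPM in WT and 17120 ± 121 CPM in KO (p = 0.2 by the same exact test). With 3 libraries against 3 the smallest p is 0.1.

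Pairs of paralogs were compared as the log2 ratio of their counts within a library, which does not depend on scaling. The ratio of EEF1A1 to EEF1A2 was 8.90, 8.98 and 9.14 in WT and 9.20, 9.21 and 9.40 in KO, a difference of 0.27 without overlap. The ratios of EIF4A1 to EIF4A2, EIF5A to EIF5A2, EIF4E to EIF4E3 and PABPC1 to PABPC4 were also higher in every KO library, by 0.32, 0.23, 0.17 and 0.06. The first of these rests on the few reads counted for EIF4A1 and was 0.20 with pseudogene rows added. Each of these 5 pairs had the smallest p the exact permutation test allows, 0.1, and 0.16 after Benjamini-Hochberg adjustment over 8 pairs. The ratios of EIF1 to EIF1B (0.04), EIF4G1 to EIF4G3 (-0.03) and EIF4EBP1 to EIF4EBP2 (-0.04) overlapped between the groups.

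The counts of 3 factors stood out for reasons that were not tested. EEF1G, the γ subunit of eEF1B and an abundant mRNA in most cells, was listed at 0 in all 6 libraries, and 2632 of its 2639 exonic bases are shared with another annotated gene of the same strand. EIF4A1, the main eIF4A helicase, had 123, 103 and 117 counts in WT and 126, 145 and 117 in KO, and its 2.95 CPM per kilobase compares with 299 for EIF4A2. Of its 5199 exonic bases 2466 lie in other genes of the same strand. EEF1D, the δ subunit of eEF1B, held 956, 937 and 376 counts in WT and 773, 1115 and 395 in KO, so that replicate 3 of each group stood far below the rest. Its log2 fold change of 0.06 had an SE of 0.28 (edgeR adjusted p = 0.919). It turned to -0.24 without WT replicate 3 and -0.29 without KO replicate 2, and was 0.35 without KO replicate 3. EEF1D was the only factor gene whose sequence lies whole on an alternate contig of the reference.

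Many of these genes also have processed pseudogenes, copies of the spliced mRNA. The table lists 143 pseudogene rows for 27 of the factor genes, 76 of them with reads. None of the 21 that could be tested passed 0.05, beside 13.8% of all genes, so this count does not set so few rows apart. For EIF4A1 they held 83.8% of the combined counts, mostly EIF4A1P10 with 619, 597 and 536 counts in WT and 591, 658 and 542 in KO. None of the 1067 windows of 150 bases in EIF4A1P10 occurs unchanged in EIF4A1 transcripts (0%), and the source of these reads was not tested. The share was 14.2% for EIF4E, 10.3% for EEF1D, 6.49% for EEF1A1, 6.09% for EIF1AX and 5.69% for EIF2S2. EEF1A1P5 alone held 16048, 15383 and 15502 counts in WT and 15034, 15472 and 15962 in KO, and 51.6% of its 150-base windows occur in EEF1A1. For EEF1G, itself at 0, the pseudogene rows held all of the counts, 14, 15 and 10 in WT and 6, 6 and 4 in KO. With these rows added to their genes, the 7 factor genes past 0.05 stayed past it, and EEF1G, which then rests on those few pseudogene reads alone, was tested as well (log2 fold change -1.21, edgeR adjusted p = 0.0425).

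**Figure D4:**
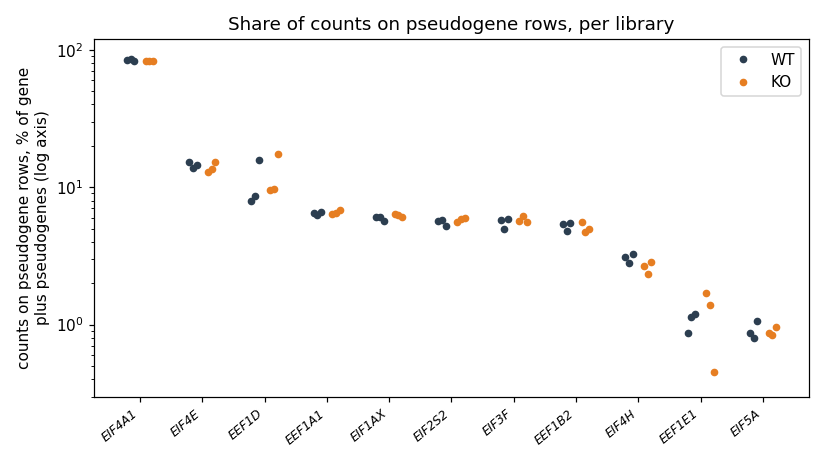
Share of the combined counts of a translation factor gene and its pseudogene rows that fell on the pseudogene rows, in percent on a log axis, for each library, with EEF1G, whose counts all fell on pseudogene rows, not drawn. EIF4A1 stands apart at 83.8%, EIF4E (14.2%) and EEF1D (10.3%) follow, and the other genes shown are lower.

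Related gene lists also showed small differences. Of 9 classical TOP mRNAs among the factors, 8 were tested, with log2 fold changes from -0.04 to 0.06. None was past 0.05 or at an unadjusted p under 0.05 in edgeR's test. Among all genes 13.8% passed the former, and 14.5% were lower and 11.8% higher at the latter. Of the 84 genes of cytosolic ribosomal proteins, 82 were tested, with a median change of 0 and a range from -0.31 to 0.20. None passed 0.001 in edgeR's test, 2 were lower and 3 higher at an unadjusted p under 0.05 (14.5% and 11.8% of all genes), and 2 were lower and 1 higher at an adjusted p under 0.05 (8.31% and 5.47% of all genes). Of 39 other genes of translation control, 38 were tested and lay between -0.16 and 0.20. None passed 0.001 in edgeR's test, and 8 were at an unadjusted p under 0.05, all higher (11.8% of all genes). Many of these genes are abundant. Where the mean was 1000 counts or more, 1005 of 5063 genes were higher and 490 lower at an unadjusted p under 0.05. Of the list, 2 genes were higher at an adjusted p under 0.05 (5.47% of all genes, and 469 of the 5063). They were SECISBP2, which recodes stop codons for selenocysteine, at 122 ± 6.98 CPM in WT and 136 ± 2.63 CPM in KO (log2 fold change 0.16, edgeR adjusted p = 0.0311), and NCBP2, of the nuclear cap-binding complex, at 120 ± 1.52 and 131 ± 2.58 CPM (0.13, adjusted p = 0.0374). Neither passed 0.05 with library totals or without KO replicate 1 or KO replicate 3, and only 1 gene of the list did without WT replicate 1. EEF2K, the kinase of eEF2, and PDCD4, the inhibitor of eIF4A, both S6K1 targets as proteins, had log2 fold changes of 0.03 (95% interval -0.08 to 0.14) and -0.05 (95% interval -0.18 to 0.09).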

How the data were processed

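RNA was sequenced after poly(A) selection with a stranded kit from 3 WT and 3 KO libraries. The authors trimmed reads with Trim Galore 0.6.5, aligned them to GRCh38 with Bowtie2 2.4.5, which does not split reads over junctions, and deposited whole-number counts per gene (featureCounts, per the labels' processing notes). The annotation release and strand setting are not given in the sources used here. The authors' DESeq2 1.37.4 table was not used. Per the authors' deposited file, it holds a signal column (mean normalized count), a log2 fold change column, score columns (standard error and statistic) and p-value columns.

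Of 61155 rows, the 19521 genes that passed filterByExpr were fitted with edgeR 4.0.16 in R 4.3.3 (quasi-likelihood F test, TMM, genotype as the only factor, common dispersion 0.00216), with Benjamini-Hochberg adjustment over these genes. CPM are scaled by TMM factors of 0.989 to 1.01. Ratios added 0.5 counts. Alternatives were DESeq2 1.42.0, its size factors, library totals, other filters, the replicate block, each library left out and added pseudogene rows. The steps were tested on simulated data. Positions, lengths and overlaps are from GENCODE 44 (70 of 71 genes matched), and start windows from RefSeq. Members, lists, thresholds and tests were chosen with earlier results of these data known. Counts in every library were to be given for genes past 0.05 and for the highest gene per length of each role. Counts or CPM in every library of EIF2S2, EIF4E, EEF2, EIF4A1, EEF1D, EIF4B and some pseudogenes, and the values named for EIF4ENIF1, EEF2K and PDCD4, were added after seeing values. The libraries share no stated batch, and intervals cover the spread between libraries.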

Additional observations from a re-analysis of the deposited data

How the results depend on the processing

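Among single genes, 3 crossed 0.001 under some setting, EIF2S3, EIF3CL and EEF1AKMT4. The count of genes lower at 0.001 was 0, and 2 without a filter on low counts, and from 0 to 1 with single libraries left out. The count higher at 0.001 was 0, and 1 with DESeq2's size factors, with DESeq2's Wald test and without a filter, and 0 with any library left out. At 0.05, the 3 lower genes became 4 with library totals, without a filter (EIF2S2 added in both) and with pseudogene rows added (EEF1G added), 2 with DESeq2's size factors and with a minimum of 10 counts, 1 in DESeq2's Wald test and from 1 to 2 with a library left out, and the 4 higher genes became 2 with library totals and from 2 to 3 with a library left out. Other genes of translation control that were higher at 0.05 numbered 2, but 0 with library totals, 4 in DESeq2's Wald test, 4 with the replicate block and from 0 to 2 with a library left out. The median log2 fold change of 0.008 was -0.012 with library totals and from 0.007 to 0.016 with a library left out. The difference of the summed level, 1.1%, was 1.56% with DESeq2's size factors, -0.335% with library totals and from 0.869% to 1.9% with a library left out. EIF3C changed sign, to -0.02, when counted with EIF3CL. RPS6KB1 ranged from -0.77 to -0.72 with a library left out.

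With the replicate number as a block, 3 factor genes were lower and 3 higher at 0.05, EIF3C being lost (edgeR adjusted p = 0.0534). Same-numbered WT and KO libraries had correlations of 0 to 0.03 of their deviations, and 1 of 3 correlated best with its own number. These values showed no pairing by number, but 3 libraries per group cannot settle it. EEF1D was lowest in replicate 3 of both groups. A left-out library reduces the samples by construction. For the other shifts the cause was not tested. Counts near 100 or below per library limit EIF4EBP3, EEF1AKMT1 and EEF1AKMT3. Libraries of 1 group differed by 2.23 to 4.51 times counting error, as chi-square per degree of freedom.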
